A study of Mus musculus with 9 samples.

Results

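The simple epithelial keratins Krt7, Krt8, Krt18 and Krt19 are the 4 members described here, taken by gene symbol from the 23366 entries of the deposited gene counts. RNA sequencing was done on mSGc, an epithelial line that became immortal spontaneously in culture after isolation from the submandibular salivary glands of 12 week old male C57BL/6 mice, and on IMOK, oral keratinocytes of 12 week old mice of this strain that became immortal in the same way. The mSGc line gave 6 libraries, 1 each for passage 2 (P2), P4, P10 and P25 in a medium the labels call progenitor medium, and 1 each for P10 and P25 in a differentiating medium. IMOK gave 3 replicate libraries in a medium of its own. Their labels give no passage, but the study says that IMOK was analysed at the passage number of P10 mSGc. The study describes a serum free and a serum containing medium, and the labels do not say which is which, so the names of the labels are used. The study describes mSGc as a line that arose with passaging, so P2 and P4 are early cultures. Nothing says whether the IMOK replicates came from separate cultures. P-values that rest on them may therefore measure technical spread. The IMOK ratios set beside steps between libraries may do so too, so those steps only describe the order. In the comparisons with IMOK the spread also holds differences of medium between the mSGc libraries, and of passage where all of them are used.

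Keratins are the intermediate filament proteins of epithelial cells, and each filament is built from pairs of a type I and a type II chain. Krt8 with Krt18 is the pair of simple, single-layered epithelia, Krt7 is a further type II chain typical of ducts, and Krt19 is a small type I chain found in ducts and in some basal cells. In salivary glands the luminal duct cells carry these simple keratins, while the basal and myoepithelial cells beneath them carry Krt5 and Krt14.

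In the deposited mm9 coordinates the 2 type II genes and Krt18 lie together on chromosome 15. Krt7 spans chr15:101242834-101258237 on the plus strand with 9 exons, and Krt8 spans chr15:101827142-101834773 on the minus strand with 9 exons. Krt18 spans chr15:101858647-101862457 on the plus strand with 7 exons, 23873 bases from Krt8. Krt19 lies apart from them, in the type I cluster of chromosome 11, at chr11:100002126-100007233 on the minus strand with 6 exons. None of the 4 overlaps another entry. Processed copies without introns are a limit for the pair Krt8 and Krt18. The Krt8 transcript has a match of 97.9% identity at chr7:24142113-24143830 and the Krt18 transcript has one of 90.3% at chr13:118246579-118247933, so reads shared with such copies make both counts uncertain. No copy covering at least 50% of the transcript was found for Krt7 or Krt19.

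Counted reads per library ran from 6237884 (P25, differentiating medium) to 18444963 (IMOK replicate 1). Levels are given as TPM, the reads of a gene divided by its length and scaled to the same sum in every library. No mSGc condition has a second library. IMOK replicate 1 stood apart from replicates 2 and 3. Acta2, the smooth muscle actin of myoepithelial cells, was at 880 TPM in replicate 1 against 7.08 and 13.8 TPM in replicates 2 and 3. Amy1, the salivary amylase, was at 0.129 TPM in replicate 1 against 22.1 and 24.9 TPM. The members' differences from IMOK, the order of their levels and the calls of list genes are therefore also given without replicate 1.

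Krt7, the ductal type II chain, was at 2074 TPM at P2, 1511 at P4, 372 at P10 and 97.8 at P25 in progenitor medium. In differentiating medium Krt7 was at 3232 TPM at P10 and 2576 at P25. In IMOK it was at 555, 347 and 421 TPM in replicates 1 to 3, a mean of 441 ± 105 TPM (SD, n = 3). The differentiating medium thus held the highest Krt7 levels of the 9 libraries, and late passage in progenitor medium the lowest. Ranked by level, neighbouring libraries differed by less than the highest-to-lowest ratio of the IMOK replicates (1.60) except at 2 steps. These were the step of 2.72-fold between P4 and IMOK replicate 1 and the step of 3.55-fold between IMOK replicate 2 and P25 in progenitor medium. With replicate 1 left out the IMOK ratio was 1.21, from 2 libraries, and 5 of 7 steps passed it.

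Krt8, the type II chain of the simple pair, was at 6326 TPM at P2, 2940 at P4, 672 at P10 and 1172 at P25 in progenitor medium. In differentiating medium it was at 3743 TPM at P10 and 2154 at P25. In IMOK it was at 1295, 659 and 816 TPM, a mean of 924 ± 331 TPM (SD, n = 3). At P2 Krt8 was the most abundant keratin and the 6th most abundant of all genes. Krt8 was the only member whose level in progenitor medium was higher at P25 than at P10, by 1.74-fold. In the order of levels no neighbouring libraries differed by more than the ratio of 1.96 within IMOK. With replicate 1 left out that ratio was 1.24, and 5 of 7 steps passed it, the largest of 1.84-fold between P25 in differentiating and P25 in progenitor medium. Which steps of the Krt8 order pass the IMOK ratio thus depends on replicate 1.

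Krt18, the type I partner of Krt8, was at 4548 TPM at P2, 1825 at P4, 738 at P10 and 516 at P25 in progenitor medium. In differentiating medium it was at 3299 TPM at P10 and 1847 at P25. In IMOK it was at 1522, 365 and 495 TPM, a mean of 794 ± 634 TPM (SD, n = 3). The IMOK spread of 4.18-fold for Krt18 was the widest among the 4 genes, and replicate 1 set it. Without that replicate the IMOK mean was 430 TPM (n = 2). No neighbouring libraries in the order of Krt18 levels differed by more than the spread of all 3 replicates. Against the ratio of 1.36 between replicates 2 and 3, 4 of 7 steps were larger, the largest of 2.47-fold between P4 and P10 in progenitor medium.

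Krt19, the small type I chain, was at 87.4 TPM at P2, 71.6 at P4, 18.2 at P10 and 0.428 at P25 in progenitor medium. In differentiating medium it was at 287 TPM at P10 and 2.32 at P25. In IMOK it was at 219, 384 and 323 TPM, a mean of 309 ± 83.5 TPM (SD, n = 3). Krt19 was the member with the widest range in mSGc, 671-fold from the highest to the lowest library, against 33.0-fold for Krt7, 9.41-fold for Krt8 and 8.81-fold for Krt18. The P25 values rest on 5 counts in progenitor and 10 counts in differentiating medium. Their exact 95% Poisson intervals are 0.139 to 1.00 TPM and 1.11 to 4.27 TPM, and cover counting error only. In the order of Krt19 levels the 3 IMOK libraries and P10 in differentiating medium formed a top group, P2 and P4 came next, and the last 3 libraries were each separated by more than the IMOK ratio of 1.75. Without replicate 1 the ratio was 1.19, and P2 and P4 were then separated as well, by 1.22-fold.

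**Figure D1:**
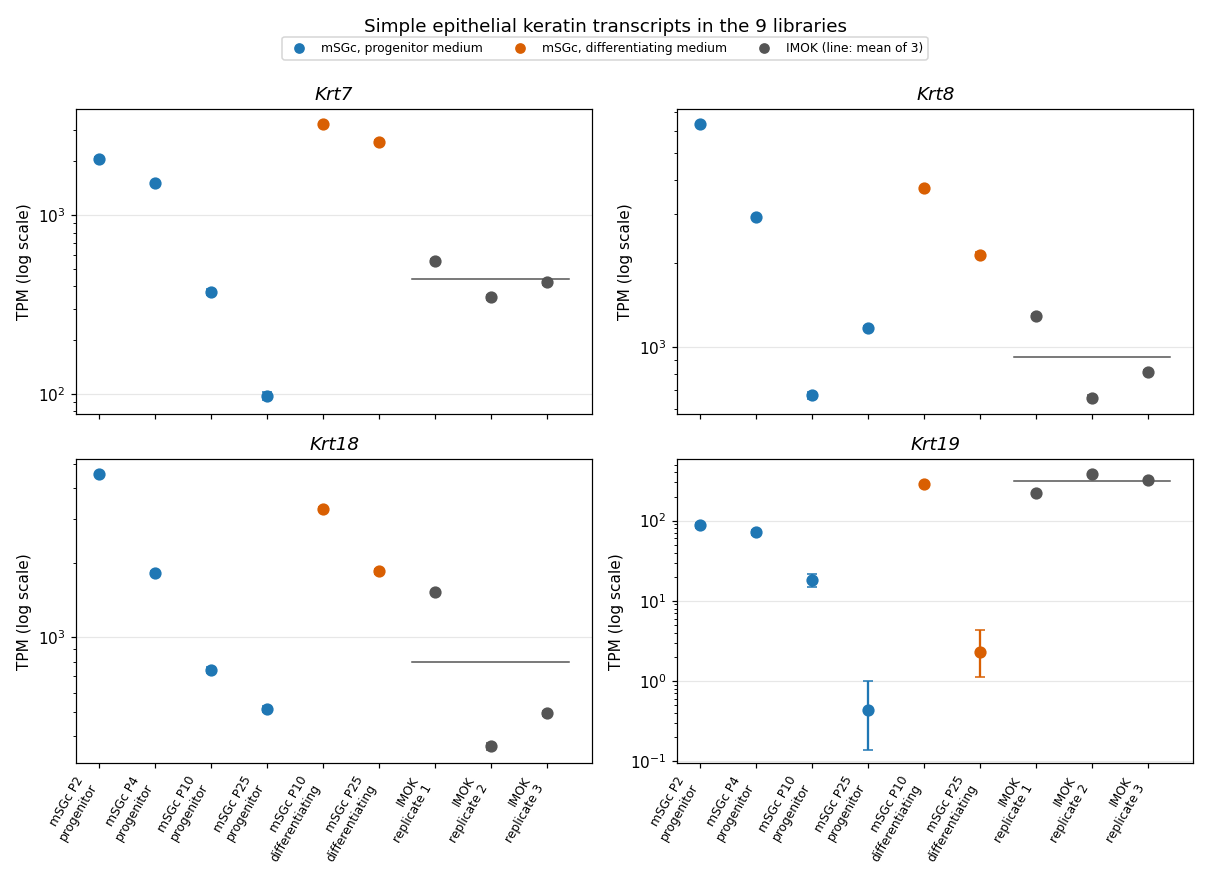
Level of each simple keratin (TPM, log scale) in the 9 libraries, with 95% Poisson intervals for counting error as bars and the mean of the 3 IMOK replicates as a line. In progenitor medium Krt7, Krt18 and Krt19 were lower at each later passage, and every member was higher in differentiating than in progenitor medium at P10 and at P25.

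Summed over the 52 keratin genes, keratin transcripts made up between 1.90% and 3.27% of all TPM in mSGc and between 1.25% and 1.51% in IMOK. The share of this keratin pool held by the 4 simple keratins was 46.2% at P2, 19.4% at P4, 9.47% at P10 and 6.89% at P25 in progenitor medium. In differentiating medium the share was 43.4% at P10 and 33.0% at P25. In IMOK the share was 23.8%, 14.0% and 16.5% in replicates 1 to 3. The simple keratins thus held a minor part of the pool in late progenitor cultures and over 40% of it at P2 and at P10 in differentiating medium. In bulk RNA, fewer cells of a luminal type and less keratin RNA per cell cannot be told apart.

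The basal keratins Krt5, Krt14 and Krt15 held the largest part of the pool where the simple share was lowest, at P10 and P25 in progenitor medium. Their share was 31.1% at P2, 55.8% at P4, 76.2% at P10 and 71.7% at P25 in progenitor medium, and 41.7% and 39.9% at P10 and P25 in differentiating medium. From P10 to P25 the basal and the simple share were both lower, in each medium. Shares of 1 pool are bound to each other, so levels are given as well, and the 3 basal keratins differed in them. Krt5, the main basal type II chain, was at 9214 TPM at P10 and 9386 TPM at P25 in progenitor medium, and at 3910 and 2559 TPM in differentiating medium. Krt14, its type I partner, was at 4728 and 9091 TPM in progenitor medium and at 5903 and 5284 TPM in differentiating medium, so at P10 it was higher in differentiating medium, as the simple keratins were. Krt15, a further basal type I chain, was at 547 and 125 TPM in progenitor medium and at 331 and 100.5 TPM in differentiating medium. At P2, where Krt8 was highest, Krt5 was at 3119 TPM, and the ratio of Krt8 to Krt5 was 2.03. That ratio was 0.318 at P4, 0.0729 at P10 and 0.125 at P25 in progenitor medium, and 0.957 and 0.842 at P10 and P25 in differentiating medium.

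**Figure D2:**
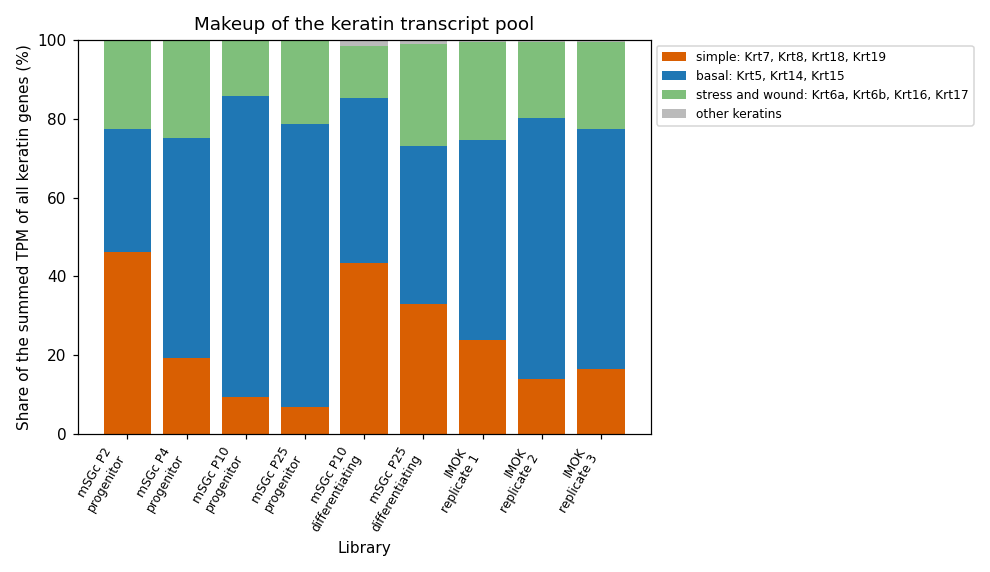
Share of the summed TPM of 52 keratin genes (%) held by simple, basal, stress and wound, and other keratins in each library. The simple keratins held 46.2% at P2 and 6.89% at P25 in progenitor medium, and 33.0% at P25 in differentiating medium.

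Partner chains were compared per length, as ratios of TPM. The ratio of Krt8 to its partner Krt18 was 1.39 at P2, 1.61 at P4, 0.911 at P10 and 2.27 at P25 in progenitor medium. It was 1.13 and 1.17 at P10 and P25 in differentiating medium, and 0.851, 1.81 and 1.65 in the IMOK replicates. The pair therefore stayed within a ratio of 0.851 to 2.27 while each chain varied by more than 8-fold across mSGc in TPM. With CPM and TMM factors Krt8 varied 8.72-fold and Krt18 6.94-fold. The ratio of Krt18 to Krt19 behaved differently. It was between 11.5 and 52.0 in mSGc at P2, P4 and P10, but 1205 and 796 at P25 in progenitor and differentiating medium, and 6.95, 0.949 and 1.53 in the IMOK replicates. In IMOK replicates 2 and 3 the 2 simple type I chains were thus of like abundance, whereas in every mSGc library Krt18 exceeded Krt19 by more than 10-fold.

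The medium was compared first at matched passage. At P10, Krt7 was 8.69-fold, Krt8 5.57-fold, Krt18 4.47-fold and Krt19 15.8-fold higher in differentiating than in progenitor medium. At P25 the folds were 26.3 for Krt7, 1.84 for Krt8, 3.58 for Krt18 and 5.41 for Krt19, the last with a counting interval of 1.69 to 20.2. All 4 members were higher in differentiating medium at both passages, as were 43.6% of the 12451 genes tested. These folds compare single libraries.

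The test of medium used the 6 mSGc libraries with log2 passage number in the same fit, which leaves 3 residual degrees of freedom. The log2 difference was 3.65 ± 0.58 (SE) for Krt7 and 1.06 ± 0.54 for Krt8. It was 1.72 ± 0.34 for Krt18 and 4.03 ± 1.09 for Krt19. With edgeR's quasi-likelihood test and Benjamini-Hochberg adjustment over all genes, the adjusted p was 0.117 for Krt7, 0.725 for Krt8, 0.181 for Krt18 and 0.309 for Krt19. So 0 of 4 members passed 0.05, where 0.0241% of genes did, and 3 of 4 had an unadjusted p under 0.05, where 8.18% did. The threshold was hard to reach in this fit, with 3 of 12451 genes called in all, each higher in differentiating medium.

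The outcome changed with the test and with the libraries. DESeq2 called Krt7 and Krt18 higher in differentiating medium (2 of 4, where 1.56% of genes were called higher). In a fit of P10 and P25 alone that pairs the media within passage, edgeR with Benjamini-Hochberg adjustment called Krt7 (3.77 ± 0.44, adjusted p = 0.0163), Krt18 (1.85 ± 0.26, adjusted p = 0.0318) and Krt19 (3.57 ± 0.39, adjusted p = 0.0157) but not Krt8 (1.53 ± 0.43, adjusted p = 0.211). That is 3 of 4, where 0.754% of genes were called higher, from 4 libraries and 1 residual degree of freedom. Over all alternatives run, the adjusted p ranged from 1.25e-10 to 0.551 for Krt7, from 9.46e-05 to 1.00 for Krt18 and from 0.0157 to 1.00 for Krt19. Leaving out 1 library gave 2.89 to 4.40 for Krt7 and 0.69 to 2.39 for Krt8, the lowest Krt8 value without P10 and the highest without P25 in progenitor medium. The Krt19 value rests on the library of P10 in differentiating medium, without which its log2 difference was 0.18 ± 1.45. Whether the medium difference changed with passage was tested with an interaction term, added after the data had been seen. By edgeR with Benjamini-Hochberg adjustment 0 of 13158 genes passed, the adjusted p was 1.00 for all 4 members, and 402 genes had an unadjusted p under 0.05, among them Krt19.

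Passage was described first in progenitor medium. Krt7, Krt18 and Krt19 were lower at each later passage, 3 of 4 members, as were 8.79% of genes tested. From P2 to P25 the level was 21.2-fold lower for Krt7, 5.40-fold lower for Krt8, 8.81-fold lower for Krt18 and 204-fold lower for Krt19. For Krt8 the lowest point was P10, 9.41-fold below P2.

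In the joint fit the log2 change per doubling of the passage number was -1.10 ± 0.21 (SE) for Krt7 and -0.63 ± 0.19 for Krt8. It was -0.78 ± 0.12 for Krt18 and -2.16 ± 0.58 for Krt19. With edgeR's quasi-likelihood test and Benjamini-Hochberg adjustment, the adjusted p was 0.0782 for Krt7, 0.213 for Krt8, 0.0533 for Krt18 and 0.179 for Krt19. Again 0 of 4 passed, where 0.490% of genes did, while 4 of 4 had an unadjusted p under 0.05, where 13.2% of genes did. DESeq2 called 4 of 4 lower with passage, where 4.65% of genes were called lower. Krt7 and Krt18 lay close to the threshold, and edgeR without a filter on low counts and limma's voom each called both. Over the alternatives the adjusted p ranged from 8.21e-08 to 0.572 for Krt7, from 0.0206 to 1.00 for Krt8, from 4.29e-08 to 0.495 for Krt18 and from 0.00170 to 0.660 for Krt19. The log2 change was negative for each member in every alternative, including progenitor medium only, while edgeR called 0 genes in all without P2 (697 at an unadjusted p under 0.05) and without P25 in progenitor medium (957), and 2 without P4.

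Compared with IMOK, the 3 keratins of chromosome 15 and Krt19 differed in direction. Line, medium and experiment change together in this comparison and cannot be told apart. Of the 6 mSGc libraries, 4 lay above all IMOK replicates for Krt7, for Krt8 and for Krt18, and 5 lay below all IMOK replicates for Krt19. The lines overlapped for each of the 4 members, so 0 of 4 were separated, where 22.3% of genes tested were. For Krt18 and Krt19 the overlap came through IMOK replicate 1 only. Replicates 2 and 3 had Krt18 at 365 and 495 TPM, below the lowest mSGc library (516 TPM). They had Krt19 at 384 and 323 TPM, above the highest mSGc library (287 TPM). For Krt8, P25 in progenitor medium (1172 TPM) also lay above both. The share of all genes separated without replicate 1 is not given here. The log2 difference of all mSGc minus IMOK was 2.07 ± 0.86 (SE) for Krt7 and 1.81 ± 0.60 for Krt8. These SEs include the passage and medium differences among the 6 mSGc libraries, and are not replicate error alone. It was 1.63 ± 0.68 for Krt18 and -1.89 ± 1.19 for Krt19, the latter -2.90 without P10 in differentiating medium and -3.61 with voom. By edgeR with Benjamini-Hochberg adjustment, the adjusted p was 0.133, 0.0697, 0.134 and 0.317 for Krt7, Krt8, Krt18 and Krt19, so 0 of 4 passed, where 14.9% of genes did, and 3 of 4 had an unadjusted p under 0.05, where 30.4% did.

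DESeq2 called Krt8 and Krt18 higher in mSGc, 2 of 4, where 11.6% of genes were called higher. Over the alternatives the adjusted p ranged from 0.00465 to 0.229 for Krt8 and from 0.0273 to 0.360 for Krt18. Leaving out 1 progenitor library also brought a call with edgeR and Benjamini-Hochberg adjustment. Without P25 the adjusted p of Krt7 was 0.0305 (range over alternatives 0.0305 to 0.322), and without P10 that of Krt8 was 0.0257. Without IMOK replicate 1 the log2 difference was 2.19 ± 1.08 for Krt7, 2.05 ± 0.74 for Krt8, 2.40 ± 0.77 for Krt18 and -2.13 ± 1.36 for Krt19, and 0 of 4 passed, where 14.7% of genes did. Krt18 stands on a list that the study chose partly on these libraries, so its direction is not independent evidence.

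The comparison of P10 mSGc with IMOK uses the same IMOK libraries. It is the one matched for passage number by the study's account, whereas the comparison of all mSGc mixes P2 to P25. The log2 difference was 2.16 ± 0.78 (SE) for Krt7, 1.40 ± 0.66 for Krt8, 1.54 ± 0.76 for Krt18 and -0.93 ± 0.99 for Krt19. With edgeR and Benjamini-Hochberg adjustment the adjusted p was 0.164, 0.251, 0.271 and 0.607 for Krt7, Krt8, Krt18 and Krt19, so 0 of 4 passed, where 4.20% of genes did, and Krt7 alone had an unadjusted p under 0.05, where 24.9% of genes did. DESeq2 called Krt7 (1 of 4, where 8.52% of genes were called higher). The 2 mSGc libraries of this comparison are 1 per medium, and the values split along them. With 1 mSGc library left, the SE measures the spread of the 3 IMOK libraries only. Against IMOK, the progenitor library alone gave 0.01 ± 0.32 for Krt7, -0.19 ± 0.39 for Krt8, 0.20 ± 0.78 for Krt18 and -3.87 ± 0.62 for Krt19. The differentiating library alone gave 2.96 ± 0.29 for Krt7, 2.12 ± 0.36 for Krt8 and -0.05 ± 0.47 for Krt19, and for Krt18 a 4.59-fold difference. At P10 the Krt7 and Krt8 levels of the progenitor culture lay within the range of the IMOK replicates, with or without replicate 1. The Krt19 level of the differentiating culture, 287 TPM, lay within that range through replicate 1 only (219 TPM). It was below replicates 2 and 3, at 384 and 323 TPM. The Krt18 level of the progenitor culture lay within the IMOK range through replicate 1 only, and was 1.72-fold the mean of replicates 2 and 3. Without IMOK replicate 1 the log2 difference was 2.27 ± 0.91 for Krt7, 1.62 ± 0.74 for Krt8, 2.28 ± 0.67 for Krt18 and -1.17 ± 1.05 for Krt19, and 0 of 4 passed, where 27.1% of genes did.

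Other keratins give the setting of these values. Tests named in the following paragraphs are edgeR's with Benjamini-Hochberg adjustment unless stated. Among 3 other keratins of simple type, Krt80 was the most abundant. It was at 77.8, 71.4, 28.2 and 5.37 TPM at P2, P4, P10 and P25 in progenitor medium, 95.2 and 33.6 TPM at P10 and P25 in differentiating medium, and 35.1 to 48.4 TPM in IMOK. Krt23 reached 25.9 TPM in IMOK replicate 1, against 1.21 and 0.486 TPM in replicates 2 and 3, and 19.5 TPM at P10 in differentiating medium, and Krt20 stayed at or below 1.17 TPM. Of these, 2 were tested, and 0 were called for line, medium or passage, where 14.9%, 0.0241% and 0.490% of all genes were. Both had an unadjusted p under 0.05 for medium and for passage, where 8.18% and 13.2% of all genes did.

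In the calls that follow, 6.58% of all genes were higher in mSGc than in IMOK, and 2.34% at P10. Of 3 basal keratins, Krt14 (1.27 ± 0.33, adjusted p = 0.0297) and Krt15 (4.63 ± 1.06, adjusted p = 0.0177) were higher in mSGc than in IMOK, and 0 were called for medium or passage. Krt15 was also higher at P10 (5.73 ± 0.93, adjusted p = 0.0387). Of 4 stress and wound keratins, Krt16 was higher in mSGc (2.65 ± 0.58, adjusted p = 0.0151), and 0 were called for medium or passage. Of 8 squamous keratins, 4 were tested and Krt4, a chain of the upper layers of lining epithelia, was higher in mSGc (8.77 ± 2.53, adjusted p = 0.0429). Krt4 was at 88.2 and 94.8 TPM at P10 and P25 in differentiating medium, but at 0.204 and 0.386 TPM in progenitor medium, and Krt13, its partner chain, was at 179 and 94.3 TPM against 34.4 and 15.5 TPM. The medium difference of these squamous chains did not pass (adjusted p = 0.177 and 0.254).

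Across all 48 keratins other than the 4 members, 18 were tested for medium, with a median log2 difference of 0.84, beside 2.69 for the 4 simple keratins and -0.01 for all genes. For passage the medians were -0.07, -0.94 and 0.00 in the same order. For all mSGc against IMOK they were 1.69, 1.72 and 0.00, with 6 of 18 other keratins called higher and 0 lower, where 6.58% and 8.30% of all genes were. Besides those named above these 6 included Krt32 (5.67 ± 1.26, adjusted p = 0.0157) and Krt79 (7.91 ± 1.42, adjusted p = 0.00966), neither above 7.41 TPM in any library. Without IMOK replicate 1, 4 of 20 other keratins were called higher, where 7.18% of all genes were. At P10 Krt32 was called as well (6.67 ± 1.23, adjusted p = 0.0477). These medians describe the lists and are no test of them.

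The luminal and ductal list holds 18 genes, 14 of them tested within mSGc. Its median log2 difference for medium was 1.43, beside -0.01 for all genes, 14 of 14 were positive, 9 had an unadjusted p under 0.05, where 8.18% of all genes did, and 0 passed, where 0.0241% did. Tfcp2l1, a transcription factor of ducts, was at 34.3 and 1.81 TPM in progenitor medium and 484 and 29.1 TPM in differentiating medium at P10 and P25 (4.23 ± 0.89, adjusted p = 0.192). For passage the median was -0.42, beside 0.00 for all genes, and 1 of 14 passed, where 0.490% of all genes did. That gene was Cldn4, a tight junction protein, at 824, 313, 137 and 42.3 TPM at P2, P4, P10 and P25 in progenitor medium (-1.17 ± 0.13 per doubling, adjusted p = 0.0332).

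Against IMOK the median of the 14 luminal and ductal genes tested was 0.52, and 2 were called higher in mSGc, where 6.58% of all genes were. These were the adhesion protein Cdh1 (1.29 ± 0.27, adjusted p = 0.0132) and Tfcp2l1 (6.91 ± 1.83, adjusted p = 0.0318). At P10 Tfcp2l1 (8.19 ± 1.55, adjusted p = 0.0494) and the tight junction protein Cldn3 (4.87 ± 0.55, adjusted p = 0.0170) were called higher, 2 of 15, where 2.34% of all genes were. Epcam, a general epithelial adhesion protein, was between 307 and 692 TPM in mSGc and between 777 and 852 TPM in IMOK, so both lines carried the epithelial marker in every library.

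Of 12 proteins that bind keratin filaments or tie them to desmosomes, 4 were called higher in mSGc than in IMOK and 1 lower, where 6.58% and 8.30% of all genes were. The higher ones were desmoplakin, Dsp (0.93 ± 0.23, adjusted p = 0.0261), periplakin, Ppl (1.25 ± 0.31, adjusted p = 0.0247), plakophilin, Pkp1 (0.87 ± 0.23, adjusted p = 0.0340), and Fam83h (0.54 ± 0.16, adjusted p = 0.0442). The lower one was Tchp, which binds keratin filaments (-1.10 ± 0.25, adjusted p = 0.0168). The median was 0.69, beside 0.00 for all genes. For medium and for passage 0 of 12 were called, with medians of 0.26 and 0.02.

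Some calls of list genes against IMOK, here and for the cell type markers below, were not made without replicate 1. In that fit 9 of the 16 list genes called for all mSGc passed again, and these were Krt15, Krt16, Krt32, Krt79, Cdh1, Tfcp2l1, Pkp1, Tchp and Aqp5. Krt14, Krt4, Dsp, Ppl, Fam83h, Mylk and Cd68 did not pass (adjusted p from 0.0646 to 0.131). The log2 differences of Krt14 (1.21), Krt4 (9.84), Dsp (0.86), Ppl (1.03) and Fam83h (0.50) were near those with replicate 1. Those of Mylk (-2.01, against -3.44) and Cd68 (-1.15, against -2.26) were smaller in size. At P10 all 4 list genes called, Krt15, Krt32, Cldn3 and Tfcp2l1, passed again. New calls came as well, in a fit where 27.1% of genes were called. At P10 these were the stress keratins Krt6b and Krt16, the linkers Dsp, Plec, Ppl, Eppk1 and Pkp1 and the myoepithelial genes Tagln and Myl9 as higher in mSGc. Epcam, the acinar genes Amy1 and Dcpp1 and the granular duct genes Klk1b4 and Egf were called lower, and for all mSGc Amy1 was. The medians for all mSGc without replicate 1 were 2.65 for other keratins, 2.12 for the simple keratins, 0.69 for the luminal and ductal list and 0.79 for the filament binding list, beside 0.05 for all genes.

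Markers of other cell types were listed to see what moved with the keratins, and their part in the results was not tested. The 7 myoepithelial markers summed to 876 TPM at P2, 144 at P4, 12.7 at P10 and 52.1 at P25 in progenitor medium, 82.6 and 8.63 TPM at P10 and P25 in differentiating medium, and 987, 10.3 and 15.9 TPM in the IMOK replicates. Acta2 was the most abundant, and Oxtr did not exceed 0.0697 TPM. Of 5 tested, 2 were called lower with passage, where 0.442% of all genes were. These were Cnn1 (-3.72 ± 0.38 per doubling, adjusted p = 0.0382) and Myl9 (-1.78 ± 0.26, adjusted p = 0.0471). Cnn1 was at 21.2 TPM at P2, 1.51 at P4 and 0 in the later mSGc libraries. Myl9 was at 107 and 19.1 TPM at P2 and P4 and at most 5.84 in the later ones. Without P2 edgeR called 0 genes in all for passage. Mylk alone of 5 tested was called lower in mSGc than in IMOK (-3.44 ± 0.75, adjusted p = 0.0150), where 8.30% of all genes were. Without IMOK replicate 1 the Mylk value was -2.01 ± 0.69 and did not pass (adjusted p = 0.0813). The list as a whole did not follow Mylk. Its median log2 difference was 0.93 for all mSGc and 4.49 without IMOK replicate 1, and at P10 it was -2.59 and turned to 2.19 without that replicate. The libraries with most myoepithelial transcript, P2 and IMOK replicate 1, were also the ones with the highest Krt8 and Krt18 of their line.

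The 10 acinar markers summed to 18.8, 127, 21.4 and 14.0 TPM at P2, P4, P10 and P25 in progenitor medium, 43.8 and 21.5 TPM at P10 and P25 in differentiating medium, and 213, 185 and 139 TPM in IMOK. By the mean of 9 libraries the most abundant was Aqp5, a water channel, though Pip was above it in 4 of 6 mSGc libraries. Aqp5 was lower in mSGc than in IMOK (-3.44 ± 0.69, adjusted p = 0.0101). Bhlha15, a defining acinar factor, did not exceed 0.478 TPM. Of the granular duct markers, 9 kallikrein, growth factor and renin genes summed to 3.38, 123, 0.457 and 0.173 TPM at P2, P4, P10 and P25 in progenitor medium, 38.3 and 0.0669 TPM at P10 and P25 in differentiating medium, and 5.89, 38.8 and 35.0 TPM in IMOK. By the mean of 9 libraries Klk1b9 was the most abundant, though at P10 in differentiating medium Klk1 was, at 23.3 TPM. Klk1b26 and Ren1 were at 0 counts in all 9 libraries, and edgeR called 0 of those tested in each comparison. At an unadjusted p under 0.05 the counts were 0 of 7 for all mSGc and 1 of 7 for P10, beside 30.4% and 24.9% of all genes. They were 0 of 6 for medium and 2 of 6 for passage, beside 8.18% and 13.2%. Without IMOK replicate 1 edgeR called 2 of 7 at P10, both lower, where 27.1% of all genes were called and 13.1% were called lower. The sums of these markers and of the acinar ones were higher in differentiating medium at P10, though not every gene was, and 0 genes of either list passed for medium. P4 held the most of both among the mSGc libraries, without the highest simple keratin levels.

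The 6 mesothelial markers summed to 23.5, 19.6, 1.17 and 3.68 TPM at P2, P4, P10 and P25 in progenitor medium, 128 and 104 TPM at P10 and P25 in differentiating medium, and 143, 122 and 120.02 TPM in IMOK. In the libraries with the highest sums most of it was Msln, at 125 and 104 TPM at P10 and P25 in differentiating medium, at 0.206 and 2.95 TPM in progenitor medium at these passages, at 14.9 and 9.69 TPM at P2 and P4, and at 119 to 129 TPM in IMOK. Its medium difference did not pass (5.12 ± 1.00, adjusted p = 0.174). Wt1 and Gpm6a, which mark mesothelium, were at 0 counts in every mSGc library. The 8 fibroblast markers, of which Col1a1 had the highest mean over the 9 libraries and Col1a2 the highest level at P2, summed to 22.7 TPM at P2 and to at most 4.36 TPM in the other mSGc libraries, 6.45 TPM in IMOK replicate 1 and 1.30 and 1.35 TPM in replicates 2 and 3. The 5 endothelial markers summed to at most 0.945 TPM in each library, and Pecam1 had the highest mean over the 9 libraries. The 6 leukocyte markers summed to between 2.01 and 4.10 TPM in mSGc and to 34.0, 8.83 and 4.86 TPM in IMOK, nearly all of it Cd68, which was lower in mSGc (-2.26 ± 0.55, adjusted p = 0.0230), while Cd3e was at 0 counts throughout. Without IMOK replicate 1 the Cd68 value was -1.15 ± 0.47 and did not pass (adjusted p = 0.131). The 5 neural and glial markers summed to between 2.92 and 43.5 TPM, with Tubb3 highest in the mean over the 9 libraries. Of the mesothelial, fibroblast, endothelial and neural lists 0 genes were called in any comparison by edgeR, but few were tested. For all mSGc against IMOK these were 2, 4, 1 and 2 genes, and at P10 2, 3, 1 and 2. For medium and for passage they were 2, 3, 0 and 2, so no endothelial gene could be called there. Of all genes, 14.9% were called for all mSGc, 4.20% at P10, 0.0241% for medium and 0.490% for passage.

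The neighbourhood of the genes was examined because the line has an abnormal karyotype. The abnormalities that the study names are of other chromosomes, not of 15 or 11. For medium the median log2 difference of the 505 genes tested on chromosome 15 was -0.01, and that of 20 tested neighbours was 0.01 around Krt7 and 0.10 around Krt8 and Krt18. For passage these medians were 0.01, -0.08 and 0.06. For all mSGc against IMOK the chromosome 15 median was -0.04, and the neighbours gave 0.24 around Krt7 and 0.19 around Krt8 and Krt18. Around Krt19 on chromosome 11 the neighbours gave 0.00 for medium, 0.03 for passage and 0.80 against IMOK, the last opposite in sign to Krt19 itself. The part of copy number in the results was not tested.

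Genes with the most similar pattern were sought by Pearson's r between log2(TPM + 1) values, among 9659 genes over the 9 libraries and 9014 genes over the 6 mSGc libraries. With so few libraries these values describe patterns only. Over the 9 libraries Krt7 was most like Mal2 (r = 0.970), a membrane traffic protein, then Lgals3 (0.940) and Cd97 (0.931). The genes most like Krt8 included Trim16 (0.975) and Tirap (0.963), and Krt18 was most like Faah (0.964), Ddx24 (0.962) and 1200011I18Rik (0.961). Krt19 was most like Dock11 (0.977), Gm14137 (0.975) and Trim2 (0.974). Krt8 and Krt18 had r = 0.932 with each other (n = 9 libraries), whereas Krt19 had 0.0174 with Krt8 and 0.0844 with Krt18.

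Over the 6 mSGc libraries Krt7 was most like Ide (0.995), Mal2 (0.983) and Lgals3 (0.982). Mal2 was at 160 and 84.2 TPM at P10 and P25 in differentiating medium and at 23.6 and 11.8 TPM in progenitor medium. Krt8 was most like Pkia (0.994), Pdia3 (0.991) and Cst6 (0.990), and Krt18 most like Sptan1 (0.996), Epha4 (0.996) and 0610010F05Rik (0.988). Krt19 was most like Alcam (0.995), Slc5a8 (0.992) and Bspry (0.991). Slc5a8, a monocarboxylate transporter, was at 75.8, 33.9, 19.1 and 0.861 TPM at P2, P4, P10 and P25 in progenitor medium and at 186 and 2.63 TPM at P10 and P25 in differentiating medium, but at most 3.30 TPM in IMOK, where Krt19 was high. Within mSGc Krt19 had r = 0.658 with Krt7, 0.614 with Krt8 and 0.742 with Krt18 (n = 6 libraries), higher than over the 9 libraries but below the 0.746 to 0.926 among the other 3 members. Many other genes were more alike than the members were. Among the 9014 genes Krt18 ranked 96 in likeness to Krt8, and Krt8 ranked 647 in likeness to Krt7.

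Promoter sequences are shown because the partner genes Krt8 and Krt18 lie side by side and had similar patterns, with Krt7 of the same chromosome beside them. RefSeq promoters (GRCm38.p6, 250 bases before to 50 bases after the start) were held for 3 of 4 members, not Krt19. Each sequence occurs once in mm9, for Krt7 at chr15:101242584-101242883 on the plus strand, for Krt8 at chr15:101834724-101835023 on the minus strand and for Krt18 at chr15:101858397-101858696 on the plus strand. Capitals mark AGGTCA, a motif recognised by nuclear receptors, chosen after the sequences were seen and searched on both strands.
Krt7: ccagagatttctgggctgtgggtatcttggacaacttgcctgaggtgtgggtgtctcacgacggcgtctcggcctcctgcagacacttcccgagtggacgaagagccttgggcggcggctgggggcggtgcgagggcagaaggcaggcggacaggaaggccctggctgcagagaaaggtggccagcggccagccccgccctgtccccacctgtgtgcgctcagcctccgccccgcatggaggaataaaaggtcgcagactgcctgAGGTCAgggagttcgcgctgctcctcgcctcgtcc
Krt8: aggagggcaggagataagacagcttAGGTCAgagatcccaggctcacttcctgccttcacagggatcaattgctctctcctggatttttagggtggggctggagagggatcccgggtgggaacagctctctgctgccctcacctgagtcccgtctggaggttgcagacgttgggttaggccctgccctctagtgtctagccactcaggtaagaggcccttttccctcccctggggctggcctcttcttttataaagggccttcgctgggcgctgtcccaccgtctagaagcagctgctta
Krt18: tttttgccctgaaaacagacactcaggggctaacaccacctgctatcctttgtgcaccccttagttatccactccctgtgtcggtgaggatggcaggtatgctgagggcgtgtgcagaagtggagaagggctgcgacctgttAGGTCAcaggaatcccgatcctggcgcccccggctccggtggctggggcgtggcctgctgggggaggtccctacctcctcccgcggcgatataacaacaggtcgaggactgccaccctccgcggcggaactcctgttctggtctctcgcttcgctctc
Each of the 3 promoters holds AGGTCA once, as do 16.3% of 32851 promoters at least once. CACCTG is also in each of the 3, and in 20.2% of all promoters. TATAAA is in the Krt8 promoter only of the 3 (13.6% of all), GGGCGG in the Krt7 promoter only (35.7%), and TGANTCA in none of them (7.81%). All motifs were read on both strands. A match is a string of letters in these windows and no evidence that a factor binds there.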

How the data were processed

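RNA of 9 libraries was prepared with a TruSeq kit. Per the labels and the submitters' processing notes, the authors aligned reads to mm9 with TopHat2 2.1.1 and Bowtie2 2.2.6 and deposited whole-number counts per gene from featureCounts 1.5.1, with gene lengths and no normalization. The annotation, strandedness and treatment of multi-mapping reads are not given in the sources used here. The tables hold 27 entries with names turned into dates and 4 with a repeated name.

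TPM was computed from these counts and lengths in Python 3.11.15 (pandas 2.3.3, numpy 2.4.6, scipy 1.17.1). Differences were tested in R 4.3.3 with edgeR 4.0.16 (quasi-likelihood, TMM, default filterByExpr, Benjamini-Hochberg adjustment at 0.05) on all genes, and p-values for a gene are from it unless another tool is named. SE was derived as the size of the log2 difference over the root of the F statistic. Alternatives were DESeq2 1.42.0, limma 3.58.1 (voom), no TMM, other filters and other sets of libraries. The outcome of a check of the fits on simulated counts is not given here, and no value above rests on it. A level of 3 counts corresponds to 0.163 to 0.481 CPM. Copies were sought with minimap2 2.31.

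The members and lists were chosen with earlier results of these data known. Named genes are the members, list genes called in a comparison or else up to 4 of the most abundant in a list, and up to 3 genes most like each member among those with at least 10 TPM in at least 2 libraries. List genes outside this rule, such as defining markers near 0, were chosen after their values were seen.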

Additional observations from a re-analysis of the deposited data

Results flagged for a closer look

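Krt19 at P10 in differentiating medium, at 287 TPM, lay far from the other 5 mSGc libraries, which ranged from 0.428 to 87.4 TPM. On untransformed TPM the gap to the nearest of them was 0.697 of the whole range, above Dixon's 95% critical value of 0.625 for 6 libraries. As a ratio this library lay 3.29-fold above P2. That is a smaller step than those of 3.93-, 7.85- and 5.41-fold between mSGc libraries lower in the Krt19 order, so the flag holds for the linear scale used. The 6 libraries differ in passage and medium, and chance alone passes this limit in about 1 of 20 groups. The same gap was 0.209 for Krt7, 0.457 for Krt8 and 0.310 for Krt18, below the limit. The Krt19 level at P10 in differentiating medium was within the range of the IMOK replicates, 219 to 384 TPM, through replicate 1 only. Replicates 2 and 3, at 384 and 323 TPM, were both above it.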

How the results depend on the processing

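No replicates pair the lines, and the media could be paired only by passage, at P10 and P25. The counts of genes called moved with the settings, and the cause was not tested. For all mSGc against IMOK (1918 called by edgeR) DESeq2 called 2900, and leaving out 1 library gave 738 to 1918. For P10 mSGc (547) DESeq2 called 2231, a filter of 10 counts in every library gave 272, and leaving out 1 library gave 0 to 3416. For medium (3) the counts were 272 with DESeq2, 36 without a filter, 1 with 10 counts in every library, 0 with voom, 123 in the fit of P10 and P25 alone, which drops P2 and P4 and also blocks on passage, and 0 to 58 with 1 library left out. For passage (61) they were 700 with DESeq2, 161 without a filter, 3 with 10 counts in every library, 126 with the passage number untransformed, 31 in progenitor medium only, and 0 to 329 with 1 library left out.

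Among the members 193 alternatives were run. No member had passed in the 4 comparisons, so no call could be lost. By sign and side of the threshold only, 170 alternatives again gave no call, 22 gave a call and 1 reversed the sign. Values without a call could be much smaller: without the P10 differentiating library Krt7 at P10 was 0.01, Krt18 at P10 was 0.20 and Krt19 for medium was 0.18. The reversed value is the log2 difference of Krt8 at P10, -0.19 without the differentiating library (leave-one-out range -0.19 to 2.12). For all mSGc, DESeq2 called Krt8 (1.83) and Krt18 (1.65), and leaving out 1 library gave 1.81 to 2.32 for Krt7, 1.44 to 2.05 for Krt8, 1.29 to 2.40 for Krt18 and -2.90 to -1.61 for Krt19. For P10, DESeq2 called Krt7 (2.13). For medium, DESeq2 called Krt7 (3.67) and Krt18 (1.73), and the fit of P10 and P25 alone called Krt7 (3.77), Krt18 (1.85) and Krt19 (3.57). For passage, DESeq2 called Krt7 (-1.11), Krt8 (-0.64), Krt18 (-0.78) and Krt19 (-2.36). Without a filter Krt7 (-1.10) and Krt18 (-0.78) were called for passage, with voom Krt7 (-1.12) and Krt18 (-0.77), without TMM Krt18 (-0.80), without P10 in progenitor medium Krt8 (-0.56) and Krt18 (-0.74), and with the passage number untransformed Krt19 (-0.37 per passage). Leaving out 1 library gave -1.13 to -0.48 per doubling for Krt8 and -0.94 to -0.63 for Krt18. The highest-to-lowest ratio of Krt7 in mSGc was 25.7 with CPM and TMM factors, against 33.0 with TPM. For Krt8 it was 8.72 against 9.41, for Krt18 6.94 against 8.81 and for Krt19 522 against 671. Krt19 was absent from fits that asked for 10 counts in every library, except at P10.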
